A study of Gallus gallus with 8 samples.

Results

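The oocyte factors described here are 10 genes that store, translate, degrade or package what the egg inherits from its mother. They are the translational regulators DAZL and CPEB1, the mRNA storage proteins ZAR1L, YBX2 and PATL2, the deadenylation factors BTG4 and CNOT6L, and the chromatin proteins NPM2, H1FOO and SPIN1. They were chosen by name, and every probe set that carries 1 of these gene symbols in the array annotation was taken, which gave 13 probe sets for 9 of the 10 genes, among 13009 named genes on the array. No probe set carried the symbol YBX2, and this gene was not analysed here.

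Expression was measured on 8 Affymetrix chicken arrays, each from total RNA labelled as hen oocyte at the F1 stage, taken 24 h before ovulation. DPF+ and DPF- come from lines under divergent selection and HG+ and HG- from 1 line, and each contrast is between hens that differ in fertility per the labels, which do not say which sign is the more fertile. Each group has 2 arrays, described as biological replicates. The light phase was 14 h and the dark phase 10 h for every group, with housing at 20 °C, and the labels name neither the age of the hens nor the number of birds behind an array. Nothing says that the replicates came from separate birds, so p values measure the spread between these arrays, which may be partly technical.

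A growing oocyte transcribes its genes and keeps much of the mRNA silent, with short poly(A) tails and a coat of binding proteins. At meiotic maturation some of these messages are polyadenylated and translated while others lose their tails and are degraded, so that early development runs on maternal RNA until the embryonic genome starts. Egg-specific histone chaperones and linker histones package the chromatin of this period. In the hen the blastodisc that holds the nucleus lies on the yolk beneath the granulosa layer of the follicle wall, and F1 is the largest follicle, the next to ovulate.

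Deposited values are log2 levels from GCRMA. A value under 4 was not taken as above background, and a probe set was tested when it reached 4 on at least 2 of the 8 arrays. Of the 13 probe sets 8 were tested, 1 for each of DAZL, CPEB1, ZAR1L, BTG4, CNOT6L, NPM2, H1FOO and SPIN1. PATL2, known from frog and human oocytes as a repressor of stored mRNA, had a single probe set, which lay between 2.43 and 2.88 on the 8 arrays. The 4 other probe sets also stayed under 4 on every array. They were 2 of CPEB1 (2.33 to 2.49 and 2.68 to 3.16), 1 of NPM2 (2.04 or 2.05 on every array) and 1 of CNOT6L (2.46 to 3.90). Each tested gene therefore rests on 1 probe set.

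The label of the samples was checked against cell type markers. Of the 12 oocyte markers on the array, the 10 factors left aside, 6 were tested (NOBOX, MOS, WEE2, TDRD7, PIWIL1 and LHX8), while the defining oocyte growth factors GDF9 and BMP15 and the germ cell helicase DDX4 had means of 2.72, 2.52 and 2.50 over the 8 arrays. Of the 17 granulosa markers 14 were tested, and the log2 of their summed linear level lay between 14.55 and 15.09 on the 8 arrays. The granulosa level and the low values of GDF9, BMP15 and DDX4 thus go against a pure oocyte label. Whether the probe sets of these low genes detect their transcripts was not tested. In such bulk samples fewer cells of a type and less RNA per cell cannot be told apart. Of the other lists 3 of 12 theca and stroma genes and 1 of 10 leukocyte genes were tested. On the red blood cell list 1 of 7 was tested, ALAS1, reached as a synonym match for the listed ALAS2. ALAS1 is not the listed gene, so no red blood cell gene was tested under its listed name. Between 11433 and 12093 probe sets per array reached 4.

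DAZL (gene 374054), the germ cell RNA-binding protein that brings poly(A)-binding protein to its target messages, was at 6.77 and 8.15 on the DPF+ arrays and at 7.78 and 6.68 on the DPF- arrays. The HG+ arrays had 7.34 and 7.55, and the HG- arrays both had 7.40. The 4 DPF arrays thus enclosed all 4 HG arrays, which spanned 0.21, and neither contrast separated its groups.

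CPEB1 (gene 415326), which binds the cytoplasmic polyadenylation element and both silences and activates messages in frog and mouse oocytes, was at 6.07 and 6.51 in DPF+, against 6.74 and 5.73 in DPF-. It was at 6.23 and 6.49 in HG+, against 6.50 and 6.03 in HG-. The highest and the lowest of the 8 values were the replicates of DPF-.

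ZAR1L (gene 771155), a zinc finger protein that represses translation in frog oocytes, was at 3.78 and 4.80 in DPF+ and at 4.59 and 3.91 in DPF-. Its HG+ values were 4.84 and 5.10 and its HG- values 4.89 and 5.04. All 4 DPF arrays lay below all 4 HG arrays, and 2 of them lay under 4.

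BTG4 (gene 419781), the adaptor that leads the CCR4-NOT deadenylase to maternal mRNA in the mouse, was at 6.70 and 8.50 in DPF+, against 7.88 and 6.96 in DPF-. The HG+ arrays had 7.86 and 8.18 and the HG- arrays 8.10 and 7.75. The DPF+ replicates were the lowest and the highest of the 8 arrays and stood 1.80 apart.

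CNOT6L (gene 422508), a catalytic subunit of that deadenylase, was at 3.38 and 4.28 in DPF+ and at 3.62 and 3.18 in DPF-. It had 4.21 and 4.17 in HG+, against 4.39 and 4.47 in HG-. It reached 4 on 1 of the 4 DPF arrays and on all 4 HG arrays, so it passed the filter mainly through HG. Its other probe set, under 4 throughout, had 2.46 and 2.95 in DPF+ and 2.84 and 2.60 in DPF-, against 3.90 and 3.46 in HG+ and 3.34 and 3.50 in HG-.

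NPM2 (gene 107050133), the egg nucleoplasmin that exchanges sperm chromatin proteins for histones in frog eggs, varied least. It was at 4.52 and 5.12 in DPF+ and at 4.60 and 4.31 in DPF-. The HG+ values were 4.59 and 4.70, against 4.63 and 4.52 in HG-. Apart from DPF+ replicate 2, the arrays lay between 4.31 and 4.70.

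H1FOO (gene 771929), the oocyte linker histone, was at 4.71 and 4.69 in DPF+ and at 4.66 and 3.82 in DPF-. It had 4.28 and 4.86 in HG+ and 4.74 and 4.54 in HG-. Both DPF+ arrays lay above both DPF- arrays, but DPF- replicate 1 was close beneath them and the low mean of DPF- came from replicate 2.

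SPIN1 (gene 395344), spindlin, a reader of methylated histones that is abundant in mouse oocytes, was at 9.68 and 8.21 in DPF+, against 9.08 and 9.39 in DPF-. Its HG+ values were 8.80 and 8.57 and its HG- values 8.54 and 8.83. DPF+ replicate 1 was the highest and DPF+ replicate 2 the lowest of the 8, the reverse of BTG4. In the chicken the gene lies on the Z chromosome and has a close copy on W, SPIN1L, and how far their transcripts share probes was not tested. The SPIN1L probe set was at 4.63 and 4.01 in DPF+, 4.74 and 4.69 in DPF-, 4.46 and 4.31 in HG+ and 4.42 and 4.53 in HG-, so its lowest array was DPF+ replicate 2 as well.

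**Figure D1:**
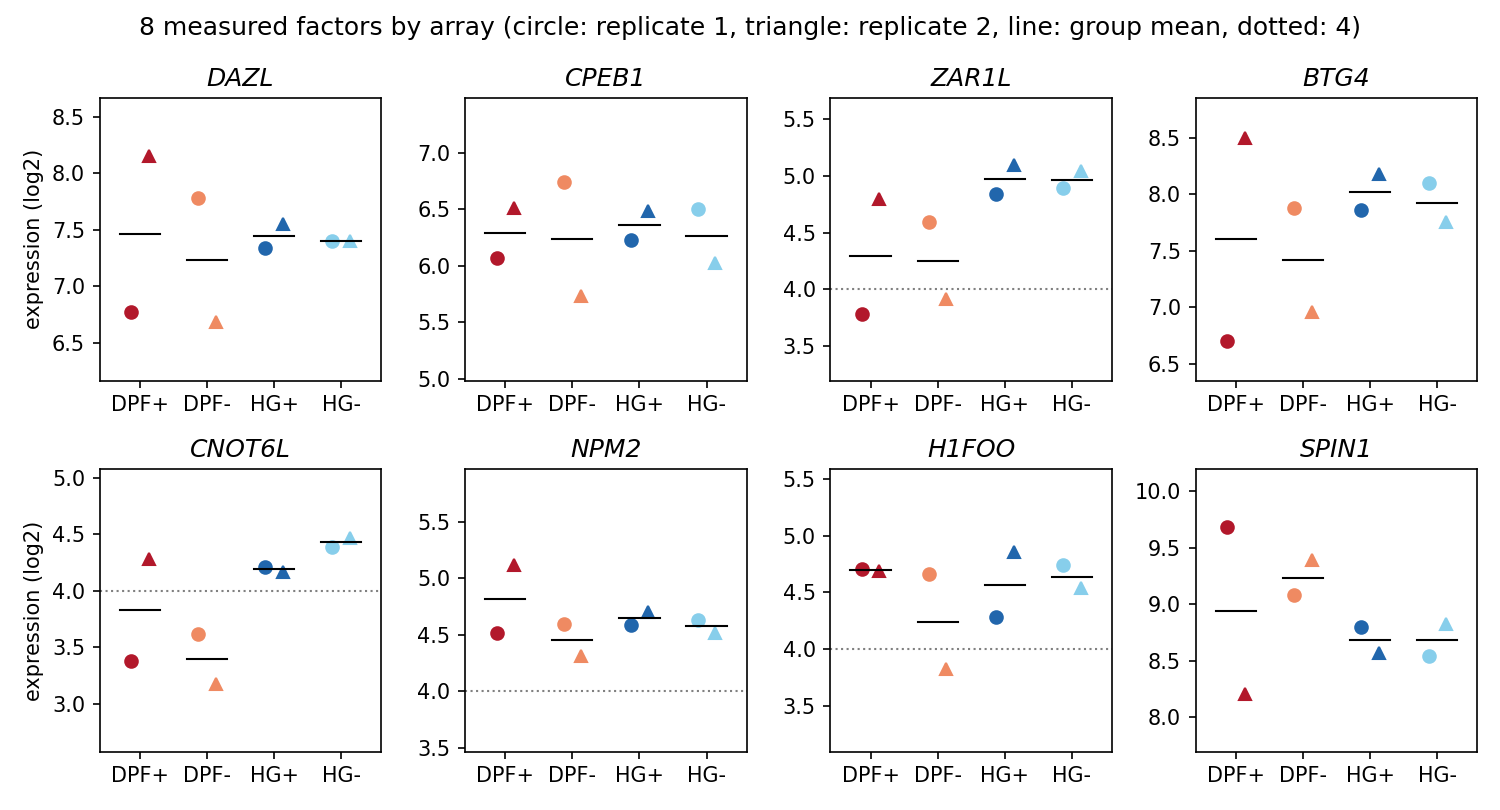
Expression (log2, y axis, the same span in each panel) of the 8 tested factors in the 4 groups (x axis), with replicate 1 as a circle, replicate 2 as a triangle, the group mean as a line and the value 4 as a dotted line. The DPF+ replicates are 1.80 apart for BTG4, 1.47 for SPIN1 and 1.38 for DAZL, and the DPF- replicates 1.10 for DAZL and 1.01 for CPEB1, while no HG pair is more than 0.58 apart (H1FOO in HG+).

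The contrast of DPF+ with DPF- addresses the fertility difference between divergent lines. Of the 8 factors 0 were called by limma (adjusted p under 5%, over 12725 probe sets), as were 0% of all tested probe sets. At an unadjusted p under 0.05 the count was 0 of 8 factors and 781 probe sets, or 6.14%. The median fitted change was 0.205 over the 8 factors, CNOT6L included, and 0.02 over all tested probe sets. The DPF+ and DPF- arrays did not overlap for 1 of 8 factors (H1FOO), against 23.3% of all tested probe sets. Higher without overlap in DPF+ were 1 of 8 factors and 11.2% of the probe sets, and lower were 0 of 8 and 12.1%. Among the 7 factors with a group mean of at least 4 in either line, the largest differences were those of H1FOO, with a mean of 4.70 ± 0.01 in DPF+ and 4.24 ± 0.59 in DPF- (SD, n = 2 each; log2 change 0.46, 95% interval -0.29 to 1.21, limma adjusted p = 0.908), and of NPM2, with 4.82 ± 0.42 in DPF+ and 4.46 ± 0.21 in DPF- (log2 change 0.365, interval -0.22 to 0.95, limma adjusted p = 0.906).

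DAZL averaged 7.46 ± 0.98 in DPF+ and 7.23 ± 0.78 in DPF- (log2 change 0.23, interval -0.90 to 1.36, limma adjusted p = 0.962). The change was 0.18 for BTG4 (interval -1.11 to 1.47), 0.055 for CPEB1 (-0.78 to 0.89), 0.04 for ZAR1L (-0.82 to 0.90) and -0.29 for SPIN1 (-1.28 to 0.70). CNOT6L had group means under 4 in both lines, 3.83 ± 0.64 in DPF+ and 3.40 ± 0.31 in DPF-, and no change is given. The 3' excess of the control transcripts, a measure of RNA quality, also separated the groups, at 1.82 and 1.86 on the DPF+ arrays and 1.54 and 1.33 on the DPF- arrays, and its part in these values was not tested. The intervals of the changes take 1 spread per probe set from all 4 groups, the HG arrays included. The median SD over all tested probe sets was 0.33 in DPF and 0.14 in HG, so the intervals may be too narrow for DPF. As fitted, the intervals leave room for a whole log2 unit in either direction for BTG4. For DAZL, H1FOO and SPIN1 they do so in 1 direction.

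Single arrays set the sign of most of these changes. Without DPF+ replicate 1 the change was 0.92 for DAZL and 1.08 for BTG4, and without DPF+ replicate 2 it was -0.46 for DAZL and -0.72 for BTG4. SPIN1 ran the other way, at 0.445 without DPF+ replicate 2 and at -1.025 without DPF+ replicate 1 (limma adjusted p = 0.0400). In that last fit 8.41% of all tested probe sets were called, and 1 of the 7 factors with a group mean of at least 4 in DPF+ or DPF-. H1FOO fell to 0.04 without DPF- replicate 2, and NPM2 to 0.065 without DPF+ replicate 2. The DPF arrays did not group by line. The correlation between arrays was 0.927 for the DPF+ replicates and 0.972 for the DPF- replicates. Across the lines it ran from 0.928 (DPF- replicate 2 with DPF+ replicate 2) to 0.977 (DPF- replicate 2 with DPF+ replicate 1).

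The contrast of HG+ with HG- addresses the fertility difference inside 1 line. Again 0 of the 8 factors were called by limma, as were 0% of the 12725 probe sets. At an unadjusted p under 0.05 there were 0 of 8 factors and 45 probe sets, or 0.354%. CNOT6L had the largest difference, with 4.19 ± 0.03 in HG+ and 4.43 ± 0.06 in HG- (SD, n = 2 each; log2 change -0.24, interval -0.97 to 0.49, limma adjusted p = 1). CNOT6L was the only 1 of the 8 in which the HG+ and HG- arrays did not overlap, and 25.1% of all tested probe sets did not overlap. Its other probe set, under 4 on every array, went the other way, at 0.26. Lower in HG+ were 1 of 8 factors and 14.4% of the probe sets, and higher were 0 of 8 and 10.7%.

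The changes of the other 7 factors lay between -0.07 for H1FOO and 0.095 for CPEB1 and BTG4, and SPIN1 had equal means of 8.69. The fit takes 1 spread per probe set from all 4 groups, so the interval of DAZL in HG, -1.08 to 1.17, also carries the spread of the DPF arrays. With the 4 HG arrays alone the smallest limma adjusted p of the 8 was 0.998.

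The difference between both contrasts, the change in DPF minus the change in HG, asked whether the change between lines differs from that within a line. It can be read for fertility only if the + sign has the same meaning in both sources, which the labels do not say. Of the 8 factors 0 were called by limma, as were 0% of all tested probe sets, and at an unadjusted p under 0.05 the count was 0 of 8 and 364 probe sets (2.86%). The differences for factors with means of at least 4 ran from 0.53 ± 0.45 (SE) for H1FOO to -0.29 ± 0.60 for SPIN1.

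**Figure D2:**
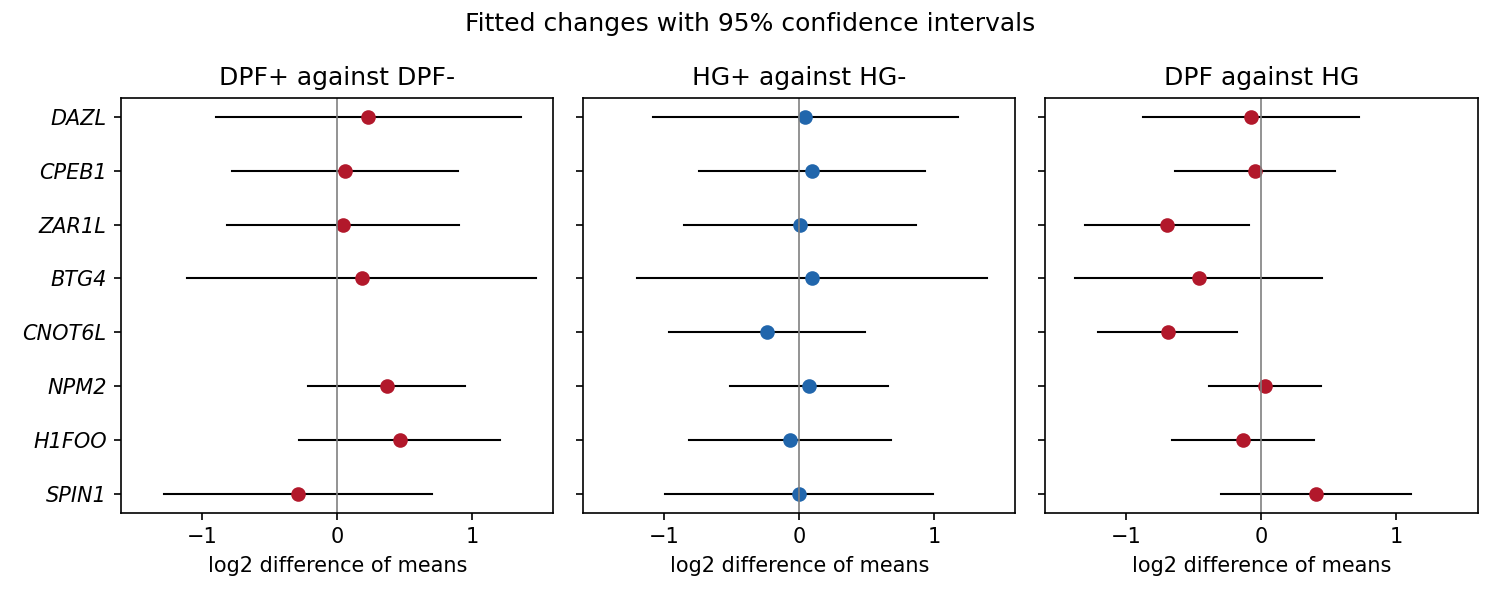
Fitted log2 differences (x axis, points) with 95% confidence intervals (lines) for the 8 factors (y axis) in 3 comparisons. CNOT6L is not drawn for DPF+ against DPF-, where both means lie under 4, and its DPF mean lies under 4 in the right panel. The intervals include 0 except those of ZAR1L and CNOT6L for DPF against HG, where 29.7% of all tested probe sets had an unadjusted limma p under 0.05. CNOT6L passed the filter through the HG arrays, so its interval there is not counted. ZAR1L reached 4 on 2 of the 4 DPF arrays.

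All DPF arrays were also set against all HG arrays. This is a comparison of hen sources that the labels do not state as an aim, and any difference in handling between the sources cannot be told apart from the lines. Of the 8 factors 0 were called, against 12.5% of the 12725 probe sets (443 higher, or 3.48%, and 1145 lower, or 9.00%, in DPF). CNOT6L, which reached 4 on 1 DPF array, passed the filter through the HG arrays, where it was high, so its p is not counted. Of the other 7 factors 1, ZAR1L, had an unadjusted p under 0.05, as did 29.7% of all tested probe sets.

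CNOT6L averaged 3.62 ± 0.48 in DPF and 4.31 ± 0.14 in HG (SD, n = 4 each), a log2 change of -0.31 or lower when the DPF mean is counted from 4. The fitted change of -0.695 (limma adjusted p = 0.0802) was not called. ZAR1L averaged 4.27 ± 0.50 in DPF and 4.97 ± 0.12 in HG (log2 change -0.70, interval -1.30 to -0.09, limma adjusted p = 0.120). ZAR1L was the only 1 of the 8 factors whose DPF and HG arrays did not overlap, against 24.8% of all tested probe sets. The highest DPF array of ZAR1L (4.80) lay close beneath its lowest HG array (4.84), and its low DPF mean came mostly from DPF+ replicate 1 (3.78) and DPF- replicate 2 (3.91). Lower without overlap in DPF were 1 of 8 factors and 16.5% of the probe sets, and higher were 0 of 8 and 8.30%. BTG4 averaged 7.51 ± 0.83 in DPF and 7.97 ± 0.20 in HG (log2 change -0.46, interval -1.38 to 0.45, limma adjusted p = 0.474).

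SPIN1 averaged 9.09 ± 0.64 in DPF and 8.69 ± 0.15 in HG (log2 change 0.405, interval -0.30 to 1.11, limma adjusted p = 0.411). The remaining means were close, with changes of -0.135 for H1FOO, -0.08 for DAZL, -0.05 for CPEB1 and 0.03 for NPM2. The intervals of these 4 changes lay within -0.88 and 0.72. The signs of the CPEB1 and H1FOO changes turned with quantile normalization, and single arrays turned those of all 4.

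The DPF+ replicates moved these changes in opposite directions. Without DPF+ replicate 1 the change was -0.44 for ZAR1L (limma adjusted p = 0.151), -0.0125 for BTG4 (0.977) and 0.0375 for SPIN1 (0.870). Without DPF+ replicate 2 it was -0.95 for ZAR1L (limma adjusted p = 0.0109), -0.91 for BTG4 (0.0226) and 0.77 for SPIN1 (0.00698), and in that fit 38.1% of all tested probe sets were called. CNOT6L was under 4 on the 3 DPF arrays left in that fit, and no change is given for it there. ZAR1L reached 4 only on DPF- replicate 1 (4.59) among those arrays, with 3.78 on DPF+ replicate 1 and 3.91 on DPF- replicate 2. In that fit ZAR1L thus passed the filter through the HG arrays, where it was high, so its p there is not counted.

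The RNA quality value separated the sources. The summed marker levels of the oocyte, granulosa, theca and stroma, and leukocyte lists overlapped between them. The excess of the 3' over the 5' probe sets, as the mean of the control transcripts for actin, GAPDH and EF1a on each array, was 1.33 to 1.86 on the DPF arrays and 1.04 to 1.17 on the HG arrays. The 6 tested oocyte markers all had lower means in DPF, as did 58.3% of all tested probe sets. Among these markers PIWIL1 changed by only -0.005, and NOBOX averaged 3.80 in DPF, under 4. The median change of the 6 was -0.48 against -0.08 for all tested probe sets, and 0 of them were called. The log2 of the summed level of the 12 oocyte markers was 7.10 to 8.04 in DPF+ and 7.15 to 7.79 in DPF-, against 7.95 to 8.14 in HG+ and 7.88 to 8.07 in HG-. Called lower in DPF were 1 of 14 tested granulosa genes and 1 of 3 tested theca and stroma genes. The 1 tested entry of the red blood cell list, ALAS1, was also called lower, and the 1 tested leukocyte gene was not. Of all tested probe sets 9.00% were called lower. The stroma collagen gene COL1A2 averaged 4.81 ± 0.81 in DPF and 8.58 ± 0.42 in HG (SD, n = 4 each; log2 change -3.77, limma adjusted p = 0.00133). Of the 3 tested theca and stroma genes VIM changed by -0.18 and PDGFRB by 0.58, and neither was called. COL1A1, COL3A1 and DCN stayed under 4 on every array. The granulosa transcription factor GATA4 changed by -0.635 (limma adjusted p = 0.0425), while the median of the 14 tested granulosa genes was -0.04. GATA4 was at 4.24 and 4.66 in DPF+ and at 5.04 and 5.37 in DPF-, against 5.39 to 5.52 in HG. The log2 sum of the granulosa genes was 14.55 to 15.05 in DPF+ and 14.87 to 15.08 in DPF-. It was 14.90 to 15.08 in HG+ and 14.93 to 15.09 in HG-. ALAS1, which stands where the red blood cell list had ALAS2, changed by -0.68 (limma adjusted p = 0.0262). The log2 of the summed level of the 7 red blood cell genes was 8.38 to 8.63 in DPF+ and 8.03 to 8.30 in DPF-, against 8.95 to 9.12 in HG+ and 8.79 to 8.96 in HG-. Only ALAS1 was tested among them, with a mean of 8.52 over the 8 arrays, so this sum follows ALAS1. The globin genes HBAA, HBAD, HBE and HBZ stayed under 4 on every array. The log2 sum of the 12 theca and stroma genes was 10.99 to 11.48 in DPF+ and 10.88 to 11.19 in DPF-, against 11.47 to 11.74 in HG+ and 11.34 to 11.42 in HG-. VIM had the highest mean of these genes, at 11.15 over the 8 arrays. The log2 sum of the 10 leukocyte genes was 8.04 to 8.59 in DPF+ and 8.22 to 9.00 in DPF-, against 8.89 to 9.38 in HG+ and 8.90 to 9.16 in HG-. Only CD74 was tested among them, with a mean of 8.54 over the 8 arrays. These sums thus rest largely on single genes. The part of RNA quality and of the cell types in the ZAR1L, CNOT6L and BTG4 differences was not tested.

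The wider spread of the DPF arrays was a property of the whole array. The SD over the 4 DPF arrays exceeded that over the 4 HG arrays for 8 of 8 factors, as it did for 87% of all tested probe sets. For DAZL it was 0.73 in DPF and 0.09 in HG, for BTG4 0.83 in DPF and 0.20 in HG, for SPIN1 0.64 in DPF and 0.15 in HG, and for NPM2 0.34 in DPF and 0.08 in HG. The medians over all tested probe sets were 0.33 in DPF and 0.14 in HG. H1FOO had the smallest contrast, with 0.43 in DPF and 0.25 in HG.

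DPF+ replicate 1 and DPF- replicate 2 were the lowest of the 8 arrays, in either order, for 4 of the 8 factors (DAZL, ZAR1L, BTG4 and CNOT6L), and the highest for SPIN1. The first pattern held in 24.5% of all tested probe sets and the second in 13.6%. On DPF+ replicate 1 and DPF- replicate 2, in that order, ZAR1L was at 3.78 and 3.91 and CNOT6L at 3.38 and 3.18. These values lie under 4 and were not taken as above background. This pair of arrays was picked from the values themselves, so the counts describe the pattern and do not test it. Relative to the mean of the 8 arrays, BTG4 was at -1.04 on DPF+ replicate 1 and -0.78 on DPF- replicate 2, and in the same order ZAR1L was at -0.84 and -0.71, DAZL at -0.61 and -0.70, and SPIN1 at 0.79 and 0.50. CPEB1, NPM2 and H1FOO had neither pattern. On DPF+ replicate 1 and DPF- replicate 2, in that order, CPEB1 was at -0.22 and -0.56, NPM2 at -0.10 and -0.31, and H1FOO at 0.17 and -0.72.

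**Figure D3:**
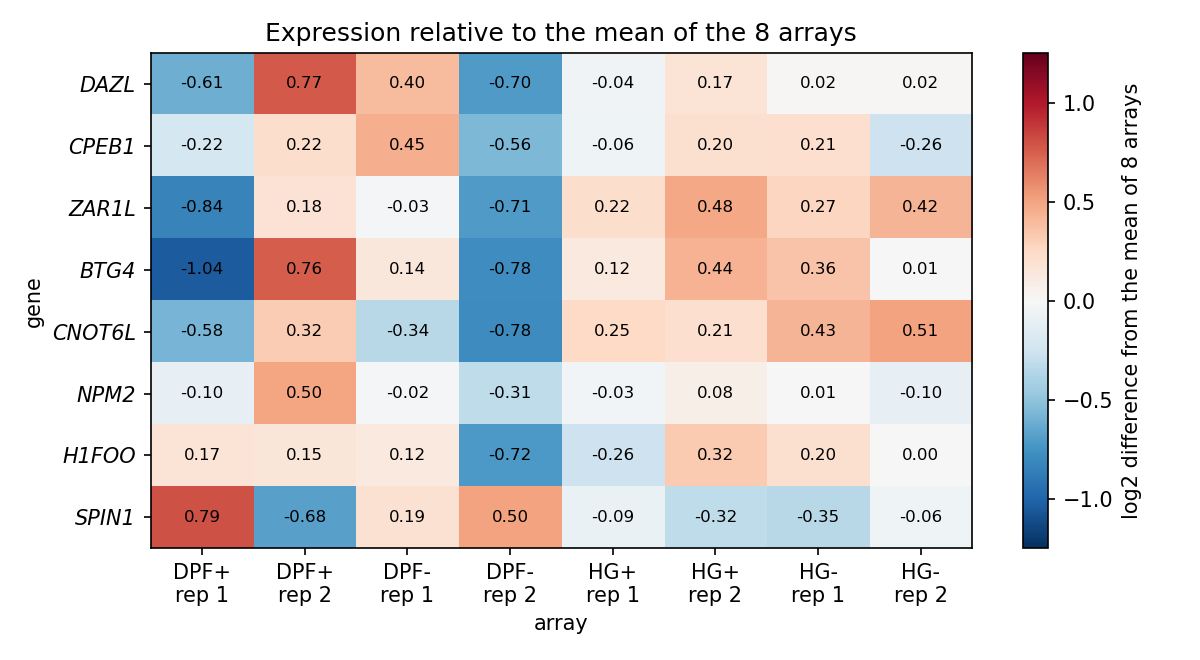
Log2 difference of each factor (down the page) from its own mean over the 8 arrays, for each array (across), shown as colour from blue (low) to red (high) and as a printed value. On DPF+ replicate 1 BTG4 is at -1.04 and SPIN1 at 0.79, and on DPF- replicate 2 SPIN1 is the only factor above its mean.

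The replicate differences give the size of these shifts within each group. In DPF+ and in DPF- the direction was that in which most factors rose, so the sign of their medians follows from this choice. DPF+ replicate 2 exceeded replicate 1 by 1.80 for BTG4, 1.38 for DAZL, 1.02 for ZAR1L and 0.90 for CNOT6L. A difference as large in either direction was found in 1.38% of all tested probe sets for BTG4, 6.23% for DAZL, 17.6% for ZAR1L and 23.5% for CNOT6L. On DPF+ replicate 1 both ZAR1L and CNOT6L lay under 4. NPM2 differed by 0.60 (43.6%), CPEB1 by 0.44 (57%) and H1FOO by -0.02 (98.1%). SPIN1 was lower on replicate 2 by 1.47 (4.58%). The median over the 8 factors was 0.75 and that over all tested probe sets 0.10.

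In DPF- the replicates ran the other way round, and replicate 1 exceeded replicate 2 by 1.10 for DAZL (2.45% of all tested probe sets differed by as much), 1.01 for CPEB1 (3.39%), 0.92 for BTG4 (4.81%) and 0.84 for H1FOO (6.40%). The median over the factors was 0.76 and that over all tested probe sets 0.06. SPIN1 was again opposite, at -0.31 (45.7%). ZAR1L differed by 0.68 (12.3%), CNOT6L by 0.44 (29.9%) and NPM2 by 0.29 (48.6%). CNOT6L lay under 4 on both DPF- arrays, and ZAR1L on DPF- replicate 2. Higher values on both DPF+ replicate 2 and DPF- replicate 1, the directions so chosen, were found for 6 of 8 factors and 41.2% of all tested probe sets. ZAR1L and CNOT6L were among these 6. In HG+ and HG- the largest differences were 0.58 for H1FOO and 0.47 for CPEB1.

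The median and the summed level of the oocyte markers were also lowest on DPF+ replicate 1 and DPF- replicate 2. Centred on the 8 arrays, the median of the 6 tested markers was -0.75 on DPF+ replicate 1 and -0.88 on DPF- replicate 2. The summed levels were 7.10 and 7.15. NOBOX, WEE2, PIWIL1 and LHX8 lay under 4 on both arrays. TDRD7 was higher on DPF- replicate 2 (4.98) than on DPF- replicate 1 (4.76). These arrays were the lowest of the 8 in 24.5% of all tested probe sets. The summed level of the granulosa markers was lowest on DPF+ replicate 2, at 14.55, where DAZL and BTG4 were highest and SPIN1 lowest. ZP3 had the highest mean of the granulosa markers (13.945) and so weighs most in this sum. The centred median of the tested granulosa markers was also lowest on that array (-0.48), but not every marker fell, and FST was at its highest there (6.81). The part of the granulosa and oocyte RNA in the replicate differences was not tested.

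**Figure D4:**
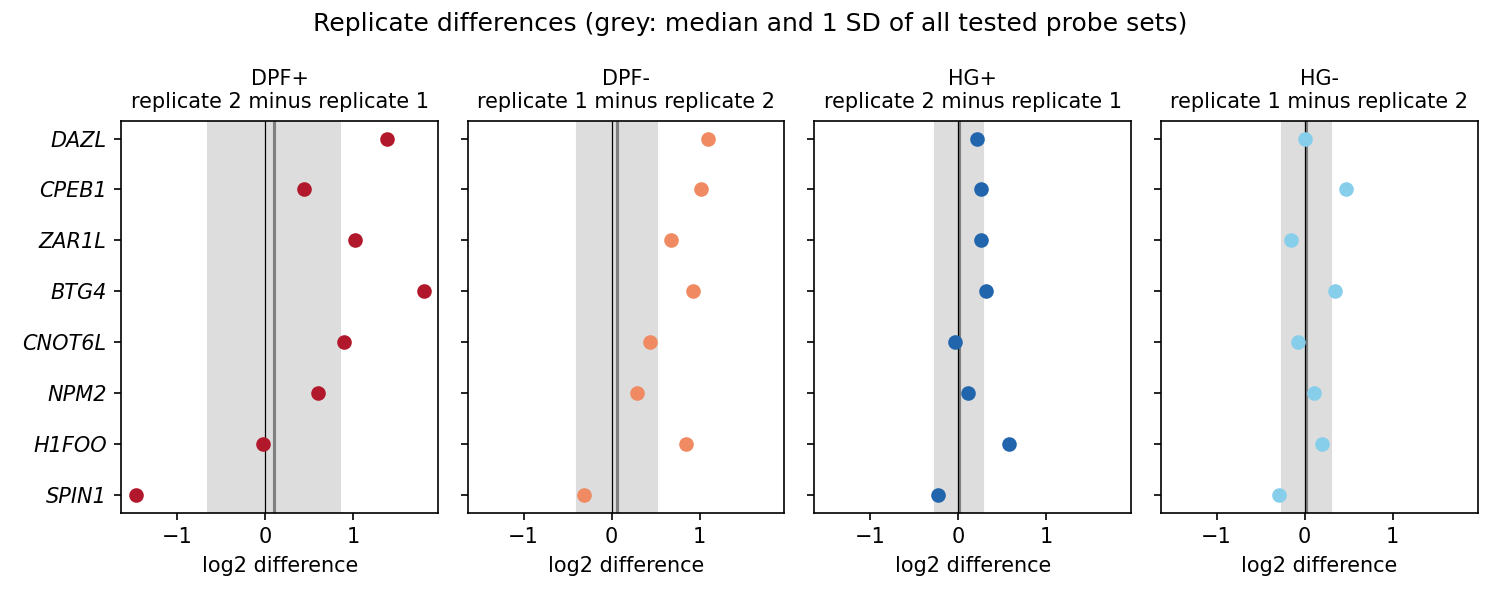
Log2 difference between the replicates of each group (x axis) for the 8 factors (y axis), with the median (grey line) and 1 SD (grey band) of all tested probe sets. BTG4 reaches 1.80 and SPIN1 -1.47 in DPF+, and the HG panels stay between -0.29 and 0.58.

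The genes with the most similar profiles were sought for the 7 factors that spanned at least 1 log2 unit over the 8 arrays. The measure was the root mean square difference of the centred values over the 8 arrays, among 7041 other genes. DAZL was closest to FRMD4B, a scaffold protein (0.08), the histone gene transcription factor HINFP (0.08) and WRNIP1, a protein of stalled replication forks (0.09). BTG4 was closest to MICALL2 (0.07), the actin-bundling PLS1 (0.08) and the kinetochore protein CENPQ (0.09). ZAR1L was closest to the chromatin remodeller SMARCAD1 (0.06), the histone deacetylase HDAC3 (0.07) and the ubiquitin ligase RLIM (0.08).

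SPIN1 was closest to PPT1, a lysosomal thioesterase (0.05), to MAT2B, a subunit of methionine adenosyltransferase (0.09), and to TMEM68 (0.09). PPT1 had 9.67 and 8.19 in DPF+, 9.05 and 9.48 in DPF-, 8.84 and 8.66 in HG+ and 8.64 and 8.84 in HG-, so that its order of arrays within DPF was that of SPIN1. CNOT6L was closest to BSDC1 (0.10), LOC425117 (0.10) and PIGU (0.11), CPEB1 to SCRN1 (0.13), TXNL4B (0.13) and TDRD3 (0.13), and H1FOO to METTL14 (0.13), LRCH2 (0.14) and LSP1P1 (0.15). No factor was among the 3 closest genes of another. The nearest pair was ZAR1L and CNOT6L (0.19), where ZAR1L ranked 91st of 7041 for CNOT6L. ZAR1L reached 4 on 2 of the 4 DPF arrays and CNOT6L on 1, so this likeness rests partly on values not taken as above background.

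The other genes of these pathways were taken from 4 lists, of which 77 genes were tested. Limma called 0 of the 77 in DPF+ against DPF-, in HG+ against HG- and in the difference of both, as it called 0 of all probe sets. In DPF against HG it called 5 of the 77, or 6.49%, against 12.5% of all tested probe sets. These shares cover unlike sets, as each of the 77 genes has only its probe set with the highest mean. With a filter at 6, 549 of 7310 probe sets were called.

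The list of CCR4-NOT subunits, BTG and TOB adaptors and other deadenylases had 14 tested genes, of which 0 rose and 1 fell in DPF. BTG4 and CNOT6L act with the CCR4-NOT complex, of which the list holds CNOT2, CNOT6, CNOT7, CNOT8, CNOT9, CNOT10 and CNOT11 as tested genes. The gene that fell was CNOT9, a subunit of that complex, with 6.43 and 6.71 in DPF+ and 6.82 and 6.83 in DPF-, against 7.64 and 7.66 in HG+ and 7.70 and 7.93 in HG-. All 4 DPF arrays lay below the HG arrays (log2 change -1.035 ± 0.14 SE, limma adjusted p = 0.00760), and its 2 other tested probe sets were also lower, at -0.48 (limma adjusted p = 0.0677) and -1.51 (0.00294). Leaving out HG+ replicate 2 (limma adjusted p = 0.0514) or HG- replicate 2 (0.0562) ended the call. The median of the list was -0.14.

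Of the 14 cytoplasmic polyadenylation and translation genes 0 rose and 1 fell, with a median of 0.06. The gene that fell was the poly(A) polymerase PAPOLB, which stands where the list had PAPOLA, at 8.77 ± 0.38 in DPF and 9.49 ± 0.06 in HG (SD, n = 4 each; log2 change -0.725, limma adjusted p = 0.0117). PAPOLB was at 8.43 and 8.44 in DPF+ and at 9.13 and 9.06 in DPF-, so its DPF mean joins separate levels of the lines. DPF+ against DPF- was not called for PAPOLB (log2 change -0.66, limma adjusted p = 0.458). Of its 2 other tested probe sets 1 was at -0.82 and 1 at 0.01. Its call was lost without any 1 of the 4 HG arrays (adjusted p from 0.0567 to 0.0797).

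Of the 26 storage, decapping and P-body genes 1 rose and 1 fell, with a median of -0.165. The mRNA decay factor ZFP36L2 averaged 8.71 ± 0.30 in DPF and 7.91 ± 0.22 in HG (log2 change 0.80, limma adjusted p = 0.0137). The mRNA-stabilizing ELAVL1 averaged 7.18 ± 0.14 in DPF and 7.77 ± 0.05 in HG (log2 change -0.585, limma adjusted p = 0.0342), while its other tested probe set was at 0.125. Leaving out DPF- replicate 2 or any 1 of the 4 HG arrays ended both calls (limma adjusted p from 0.0596 to 0.155), and leaving out DPF- replicate 1 that of ELAVL1 (0.0588). The replicate block (limma adjusted p = 0.0736) and the fit with no filter (0.0643) also ended the ELAVL1 call.

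Of the 23 histone chaperone and chromatin genes 1 rose and 0 fell, with a median of -0.07. The DNA methyltransferase DNMT3A averaged 5.63 ± 0.25 in DPF and 4.99 ± 0.16 in HG (log2 change 0.64, limma adjusted p = 0.0336). Its call was lost without either DPF- array or any 1 of the 4 HG arrays (limma adjusted p from 0.0753 to 0.166), with the replicate block (0.0675) and with no filter (0.0604). The median over all tested probe sets in this comparison was -0.08.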

How the data were processed

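Each probe set has 1 log2 value per array, deposited by the authors after GCRMA, per the submitters' processing notes. GCRMA corrects background, normalizes between arrays and summarizes probes. The sources used here do not say whether GCRMA was run jointly on the 8 arrays. Of 38535 probe sets 96 AFFX controls and 8 with blank values were left out. Those at a log2 value of 4 or more on at least 2 arrays were tested (12725). Group means were fitted with limma 3.58.1 in R 4.3.3 (lmFit, eBayes with an intensity trend, two-sided, 4 residual and 3.68 prior degrees of freedom), with Benjamini-Hochberg adjustment over all tested probe sets at 5%. The script was tested on simulated data. The number of arrays limits the precision.

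Gene names came from the platform annotation, updated by gene identifier through a RefSeq gene table. Among tested probe sets 10602 had 1 gene, 57 several and 2066 none. A gene is represented by its tested probe set with the highest mean. The factors and lists were chosen with earlier results of these data known. The text names every probe set of the factors, each called list gene up to 4 per direction, and the 3 closest profiles of each factor spanning 1 log2 unit.

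Alternatives were no filter, a filter at 6, median centring, quantile normalization, no trend, the replicate block, the 4 arrays of a contrast, a 2-group model and each array left out.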

Additional observations from a re-analysis of the deposited data

Results flagged for a closer look

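In the 4 DPF arrays 1 value stood apart from the rest. For H1FOO DPF- replicate 2 was at 3.82, while the other 3 DPF arrays lay between 4.66 and 4.71, so that its gap to the nearest array was 0.944 of the whole range. The 8 factors were checked in the DPF and the HG arrays, which made 16 checks, and chance flags about 1 in 20.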

How the results depend on the processing

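The counts of called probe sets moved with the processing, and the cause was not tested where no construction is named. DPF+ against DPF- had 10 calls with no filter, 13 with a crossed replicate block on its 4 arrays (chosen after seeing the data), and 0 to 1070 when 1 array was left out, the highest without DPF+ replicate 1. HG+ against HG- and the difference between the contrasts each had 1 call with no filter. DPF against HG had 1588 calls, against 1045 with no filter, 549 with a filter at 6, 870 with the replicate block, and 174 (without HG- replicate 2) to 4846 (without DPF+ replicate 2) when 1 array was left out. With 1 array left out a group has 1 array, assumed to vary like the other groups. Quantile normalization gave 1367 (550 higher, 817 lower in DPF), against 443 higher and 1145 lower. Same-numbered replicates did not deviate together (r = -0.521 in DPF and -0.194 in HG), so the numbers were not taken as pairs. With the replicate block or with no filter the ELAVL1 and DNMT3A calls were lost.

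Quantile normalization turned the DPF against HG change of CPEB1 (0.001875) and H1FOO (0.009375). Leaving out 1 array turned the sign of 20 results for single factors. In DPF+ against DPF- these ran from -0.46 to 0.92 for DAZL, -0.45 to 0.56 for CPEB1, -0.72 to 1.08 for BTG4, -0.47 to 0.55 for ZAR1L and -1.025 to 0.445 for SPIN1. In HG+ against HG- they ran from -0.06 to 0.15 for DAZL, -0.14 to 0.33 for CPEB1, -0.08 to 0.27 for BTG4, -0.125 to 0.135 for ZAR1L and -0.36 to 0.22 for H1FOO. In the difference they ran from -0.505 to 0.875 for DAZL, -0.545 to 0.465 for CPEB1, -0.815 to 0.985 for BTG4, -0.475 to 0.545 for ZAR1L, -0.005 to 0.595 for NPM2 and -1.025 to 0.445 for SPIN1. In DPF against HG they ran from -0.4225 to 0.2675 for DAZL, -0.3025 to 0.2025 for CPEB1, -0.1225 to 0.1775 for NPM2 and -0.345 to 0.075 for H1FOO. Each group has 2 arrays, and ZAR1L, CNOT6L, NPM2 and H1FOO lie close to the value 4, where GCRMA levels separate little from background.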

Other observations

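Several relatives of the factors were measured. YBX1 and YBX3, the somatic relatives of YBX2, had means of 11.73 ± 0.16 and 11.43 ± 0.41 over the 8 arrays (log2, SD, n = 8). NPM1, the nucleolar relative of NPM2, had 11.86 ± 0.19, while NPM3 stayed between 3.17 and 3.41. CNOT6, the other deadenylase subunit of the CNOT6L kind, had 8.04 ± 0.28, and the BTG family genes BTG1 and BTG2 had 11.03 ± 0.18 and 10.58 ± 0.33. On their highest probe sets CPEB2, CPEB3, CPEB4, PATL1 and the DAZL relative BOLL stayed under 4 on every array, with means of 2.90, 3.20, 2.66, 3.39 and 2.76. YBX3 was at 10.85 and 12.21 in DPF+, 11.24 and 11.08 in DPF-, 11.57 and 11.44 in HG+ and 11.47 and 11.60 in HG-, so that its DPF+ replicates were the lowest and the highest of the 8, as with BTG4. This order is not particular to YBX3 and BTG4. CNOT10 (7.39 and 9.14 in DPF+), TOB2 (6.18 and 7.61) and PARN (5.59 and 6.94) also had it, and its share of all tested probe sets was not counted.

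CPEB1 and PATL2 lie near each other on 1 chromosome of the RefSeq table, with 4 annotated genes between them.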
